A study of Bos taurus and Ovis aries and Capra hircus with 27 samples.

Results

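Sheep heart was compared with sheep kidney, gene by gene, in 6 of the 27 messenger RNA libraries of the series. The libraries were chosen by tissue: sheep heart 1 to 3 and sheep kidney 1 to 3, with 3 libraries in each group. All 6 came from small tail han sheep of about 3 years, with no treatment and no altered gene, and the study describes its animals as unrelated adult females from which several tissues were taken. Values were FPKM, that is, fragments corrected for transcript length and for how many fragments each library had mapped. Of the 25196 genes listed for sheep, 13549 exceeded 0.5 FPKM in at least 3 of the 6 libraries and were compared. The other 11647 were not tested, and 7149 of them were listed at 0 in all 6 libraries.

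Heart muscle is built of contractile filaments and is packed with mitochondria, which supply the energy for continuous beating. The kidney holds many epithelial cell types along the nephron, where filtered blood plasma is reabsorbed and modified by distinct sets of transporters, beside glomeruli, vessels and hormone-producing cells. A whole piece of tissue is a mixture of cells, so that fewer cells of a type and less RNA per cell cannot be told apart in such samples. The genes carried Ensembl identifiers without symbols, and 0 of the 25196 were found in the reference table, which is for cattle. The tissue labels were therefore not checked against marker genes, and genes are described by level, number and direction.

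Replicates of heart were closer to each other than those of kidney. Across the 13549 genes, Pearson's r of log2(FPKM + 1) was between 0.975 and 0.979 for the 3 pairs of heart libraries and between 0.923 and 0.969 for the 3 pairs of kidney libraries. Kidney 2 stood apart, with r of 0.932 and 0.923 to kidney 1 and 3. The SD of a gene over 3 replicates had a median of 0.18 in heart and 0.27 in kidney on the log2 scale. Between the tissues r was much lower, with a mean of 0.599 and a highest value of 0.642 over the 9 pairs. These coefficients run over genes, which are not independent replicates.

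Expression in heart was concentrated in very few genes. Ordered from the most abundant gene down, 50 percent of the summed FPKM was reached with 13, 12 and 16 genes in heart 1, 2 and 3. In kidney 1, 2 and 3 it took 128, 133 and 209 genes. The groups did not overlap, with means of 13.7 ± 2.08 in heart and 157 ± 45.4 in kidney (SD, n = 3). For 80 percent of the sum, 169 ± 44.1 genes were needed in heart and 2260 ± 329 in kidney. The most abundant gene alone took 6.69%, 17.9% and 7.04% of the sum in the heart libraries and 3.94%, 3.56% and 2.28% in the kidney libraries. Heart 2 thus had the largest share for its first gene, and it also had the largest sum of FPKM (1284330). The sums were between 945628 and 1284330 in heart and between 416442 and 529787 in kidney. Each of these differences had a 2-sided exact permutation p of 0.1, the smallest that 3 unpaired libraries against 3 allow (0.107 after Benjamini-Hochberg adjustment over 15 tests). These tests treated heart and kidney libraries as unpaired, although libraries of the same number were later taken as pairs.

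**Figure D1:**
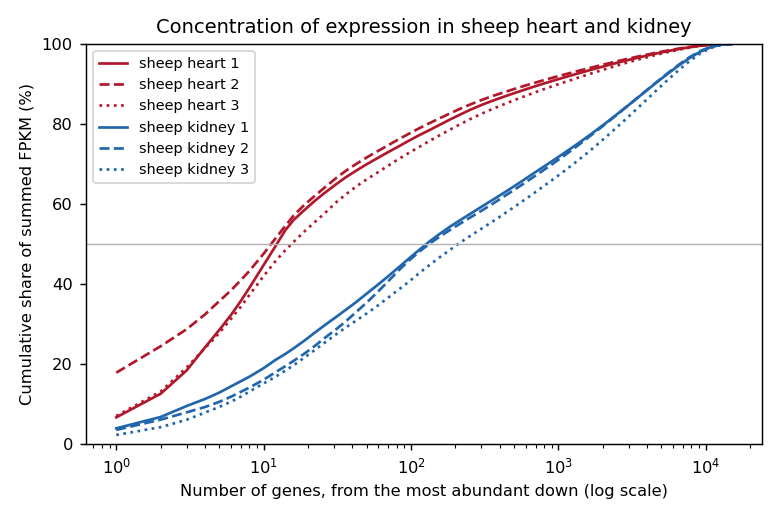
Cumulative share of summed FPKM (y axis, %) against the number of genes counted from the most abundant down (x axis, log scale) in each sheep library, with heart in red and kidney in blue and a gray line at 50%. The heart curves cross 50% at 12 to 16 genes and the kidney curves at 128 to 209 genes.

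With deposited FPKM, kidney had more genes at moderate levels and heart had more at the highest. The number of genes above 10 FPKM was 3665, 4211 and 3946 in heart 1 to 3 and 5844, 6355 and 5966 in kidney 1 to 3, so every kidney library lay above every heart library. The median level of the genes above 0.5 FPKM was 5.25 ± 0.43 FPKM in heart and 8.72 ± 0.52 in kidney (SD, n = 3). Above 100 FPKM the groups overlapped, with 533 to 619 genes in heart and 452 to 563 in kidney (exact permutation p = 0.2, n = 3). Above 1000 FPKM the order was turned, with 89, 108 and 90 genes in heart and 64, 84 and 45 in kidney (exact permutation p = 0.1, n = 3). Above 10000 FPKM there were 16, 18 and 16 genes in heart and 3, 2 and 0 in kidney. The lower of these thresholds depended on scaling. When libraries were centered by median ratios (each divided by its median ratio over genes to the geometric mean of the 6), the genes above 10 FPKM numbered 4868 to 4947 in heart and 4584 to 4856 in kidney, so that heart was then the higher group. The genes above 100 FPKM were then 725 to 732 in heart and 314 to 387 in kidney, without overlap. The genes above 1000 FPKM after that scaling were 115 to 125 in heart and 34 to 61 in kidney.

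Most genes differed between the tissues, and most of these were higher in kidney. Of the 13549 genes, 9813 (72.4%) passed limma's moderated test on log2(FPKM + 1) at a Benjamini-Hochberg adjusted p of 0.05. Kidney was higher for 7566 of them (55.8% of the genes tested) and heart for 2247 (16.6%). Heart and kidney libraries did not overlap at all for 10305 genes (76.1%), of which 7902 (58.3%) were higher in kidney and 2403 (17.7%) in heart. Of the genes called, 9677 had groups without overlap. The median difference over all genes tested, heart minus kidney, was −0.71 on the log2 scale, so a typical gene was lower in heart.

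The direction of the calls depended on how the libraries were scaled. After median ratio scaling the median difference was −0.02, and 8477 genes were called (62.6%), 4230 higher in heart (31.2%) and 4247 higher in kidney (31.3%). Heart thus held 22.9% of the calls with deposited FPKM and 49.9% after median ratio scaling. After quantile normalization heart held 46.5% of 8297 calls (61.2%), with 3857 higher in heart (28.5%) and 4440 in kidney (32.8%). When the libraries were brought to equal sums of FPKM, 11701 genes were called (86.4%) and heart held 9.43% of the calls, with 1103 higher in heart (8.14%) and 10598 in kidney (78.2%). Median ratio and quantile scaling center the libraries, so a near balance follows from their construction. Of the 7566 genes called higher in kidney as deposited, 4247 (56.1%) were also called so after median ratio scaling and 14 were called higher in heart. All 2247 genes called higher in heart as deposited were called in the same direction after it. Under all 4 scalings, 1099 genes were called higher in heart and 3929 higher in kidney.

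**Figure D2:**
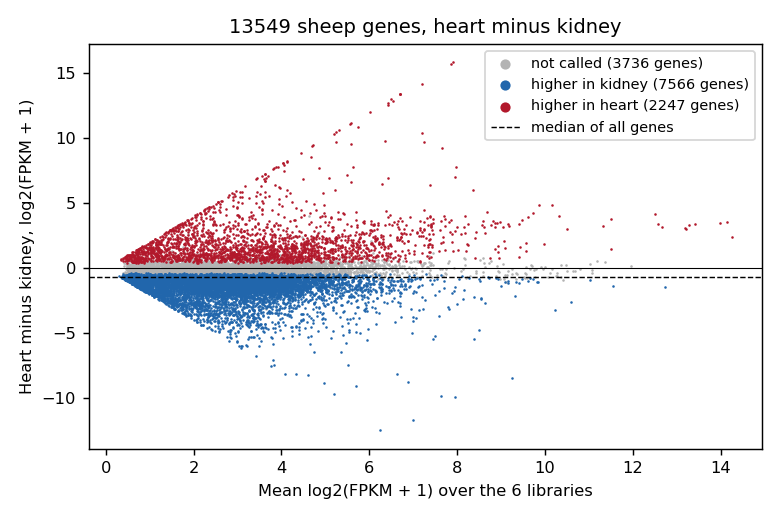
Difference between the tissue means (y axis, heart minus kidney, log2(FPKM + 1)) against the mean level over the 6 libraries (x axis, log2(FPKM + 1)), with a point for each of the 13549 genes. Red points are the 2247 genes called higher in heart, blue points the 7566 called higher in kidney, gray points the 3736 not called, and the dashed line is the median of −0.71.

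With deposited FPKM the balance of the calls moved toward heart as the difference grew. A difference of at least 1 on the log2 scale was found for 1567 genes higher in heart and 5152 higher in kidney. At a difference of at least 3 (8-fold on the FPKM + 1 scale) there were 368 and 546. At a difference of at least 5 (32-fold), the order was turned, with 100 genes higher in heart and 61 higher in kidney. Median ratio scaling gave 137 and 32 at that size, and quantile normalization 107 and 55. With equal sums the order did not turn, and 73 genes were higher in heart and 182 in kidney. The typical called gene differed less, with a median difference of 1.46 for genes higher in heart and −1.28 for genes higher in kidney.

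Genes of similar level in both tissues could be identified only relative to a scaling. The 95% interval of the difference lay within 0.5 log2 units of 0 for 289 genes (2.13%) with deposited FPKM and for 795 genes (5.87%) after median ratio scaling. Only 2 genes met this under both. The median difference moved from −0.71 to −0.02 between these scalings, so few genes could meet the limit under both. The typical interval was ± 0.48 with deposited FPKM, which leaves few genes that could meet the limit.

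The direction of the calls changed with the abundance of the gene. Genes were grouped by their mean FPKM over the 6 libraries. Below 1 FPKM, 604 of 955 genes were called and 25.2% of the calls were higher in heart. Between 1 and 10 FPKM, 5189 of 7151 genes were called and 16.7% of the calls were higher in heart. Between 10 and 100 FPKM, 3607 of 4891 were called and 27.2% were higher in heart. Between 100 and 1000 FPKM, 352 of 469 genes were called and heart held 56.5% of the calls. Above 1000 FPKM, 61 of 83 genes were called, 46 higher in heart (75.4%) and 15 higher in kidney. The median difference in that class was 2.99 on the log2 scale, whereas it was −0.80 between 1 and 10 FPKM. Median ratio scaling raised the share of heart in each class, to 43.2% between 1 and 10 FPKM and 83.9% above 1000 FPKM. The classes hold the values compared, so a gene very high in a single tissue enters a high class. Classes were also set by the mean level in sheep liver, a tissue outside the comparison. Heart then held 27.8% of the calls below 1 FPKM, 14.5% between 1 and 10 FPKM and 32.7% between 10 and 100 FPKM. It held 51.1% between 100 and 1000 FPKM and 37.0% (20 of 54) above 1000 FPKM, so the majority for heart in the top class was not seen there.

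**Figure D3:**
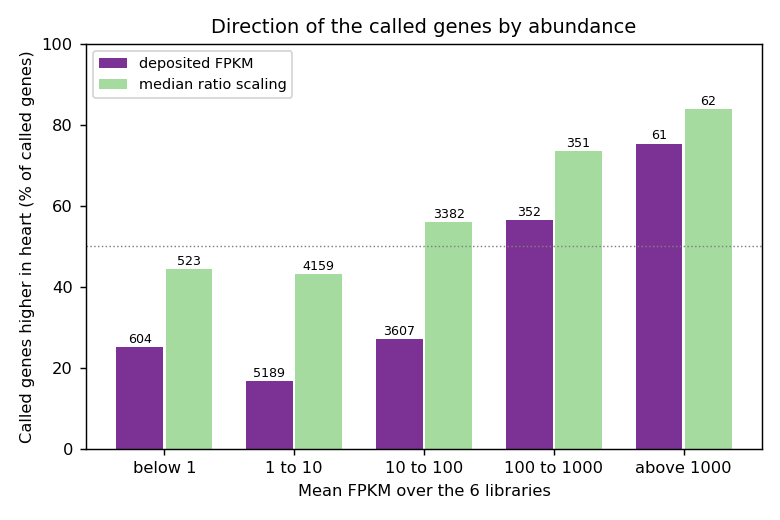
Share of the called genes that were higher in heart (y axis, %) in 5 classes of mean FPKM over the 6 libraries (x axis), for deposited FPKM (purple) and after median ratio scaling (green), with the number of called genes above each bar and a dotted line at 50%. With deposited FPKM the share was 25.2% below 1 FPKM, 16.7% between 1 and 10 FPKM and 75.4% above 1000 FPKM.

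The called genes made up most of the summed expression of the tissue in which they were higher. The 2247 genes called higher in heart held 77.7%, 81.5% and 81.4% of the summed FPKM of heart 1, 2 and 3 and 15.9%, 15.3% and 16.7% of kidney 1, 2 and 3. The 7566 genes called higher in kidney held 6.36%, 5.30% and 6.52% in heart and 58.5%, 52.8% and 59.3% in kidney. These shares describe genes chosen by the same values and were not tested. All of the 10 genes with the highest mean in heart were called higher in heart, against 16.6% of all genes tested. Of the 10 with the highest mean in kidney, 3 were also among the 10 of heart and were called higher there. The other 7 were called higher in kidney, against 55.8% of all genes tested. These genes were chosen by levels that the calls also use, so the counts are no separate result. The 10 highest genes of heart had means between 25727 and 100472 FPKM, and those of kidney between 4810 and 14021 FPKM.

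Most of the genes tested were expressed in both tissues. All 6 libraries exceeded 0.5 FPKM for 11024 of the 13549 genes, and 7733 of these (70.1%) were called, 1652 higher in heart and 6081 in kidney. A further 366 genes exceeded 0.5 FPKM in all heart libraries and in no kidney library, and 972 in all kidney libraries and in no heart library. Such genes passed the filter through a single tissue and had to differ, and 358 and 958 of them were called.

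A stricter definition, above 1 FPKM in every library of a tissue and below 0.1 FPKM in every library of the other, left 112 genes detected in heart without kidney and 128 in kidney without heart. The heart genes were at higher levels, with a median of 13.0 FPKM against 3.83 for the kidney genes, and 27 of 112 exceeded a mean of 100 FPKM against 4 of 128. Sheep liver, which the definition did not use, was below 0.1 FPKM in all 3 libraries for 79 of the heart genes (70.5%) and for 60 of the kidney genes (46.9%). It was above 1 FPKM in all 3 libraries for 10 of the heart genes (8.93%) and 16 of the kidney genes (12.5%). For 7 of the heart genes and 15 of the kidney genes the mean in liver exceeded that in the tissue that defined them. The liver shares over all genes tested were not determined. The sets also differed otherwise: the other tissue was listed at 0 in all libraries for 61 heart genes and 48 kidney genes. The sizes of both sets moved with the processing: after median ratio scaling there were 139 heart genes and 78 kidney genes, so that the order of the counts turned.

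**Figure D4:**
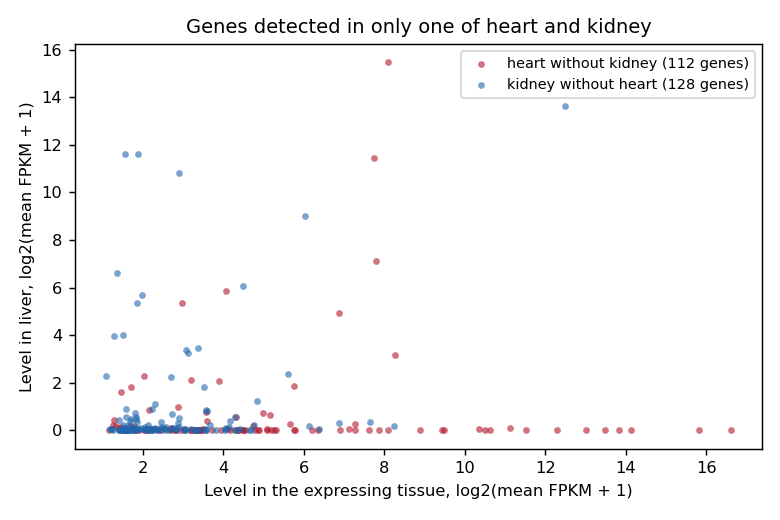
Level in liver (y axis, log2 of the mean FPKM + 1) against the level in the expressing tissue (x axis, same unit) for the 112 genes detected in heart without kidney (red) and the 128 detected in kidney without heart (blue). Most points lie at the bottom, where liver was near 0, and the red points reach further to the right, up to a mean of 100472 FPKM.

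The gene with the widest gap in favor of heart was ENSOARG00000015719. It had 31711, 84832 and 56510 FPKM in heart 1, 2 and 3 and was listed at 0 in every kidney and liver library. It was the 9th, 2nd and 3rd most abundant gene of the 3 heart libraries. The gene with the largest difference of means was ENSOARG00000024133, with 57588, 229327 and 14500 FPKM in heart 1, 2 and 3. It was also listed at 0 in all kidney and liver libraries. Its level was uneven among heart libraries, and in heart 2 it alone took 17.9% of the summed FPKM, against 5.82% and 1.53% in heart 1 and 3. Both genes were called under every alternative that tested them. The filter of over 80% of libraries, taken from the study, removes genes at 0 in a whole tissue. The limma adjusted p was 6.90e-08 for ENSOARG00000015719 (between 2.87e-10 and 9.11e-06 under the alternatives) and 4.93e-06 for ENSOARG00000024133 (between 1.55e-07 and 0.000125). No fold change is given for either, because kidney was listed at 0. Both genes were chosen for their difference in these libraries and passed the filter through heart alone. Their calls and p are therefore no independent support.

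In the other direction the widest gap was that of ENSOARG00000000016, with 5060, 6801 and 5314 FPKM in kidney 1, 2 and 3. It was listed at 0 in every heart library (limma adjusted p = 1.10e-08). In liver it was higher still, with 15136, 11588 and 10719 FPKM. It was the only gene listed at 0 in all heart libraries and above 1000 FPKM in all kidney libraries, whereas 9 genes were listed at 0 in all kidney libraries and above 1000 FPKM in all heart libraries. A listed 0 can be a failed estimate, and without counts this was not tested for these genes. The gene with the largest difference of means in favor of kidney was ENSOARG00000021738, with 19086, 18849 and 4128 FPKM in kidney 1, 2 and 3. It was the most abundant gene of kidney 1 and kidney 2 and the 10th of kidney 3. In heart it had 163, 0 and 212 FPKM. The log2 difference of −8.45 ± 1.90 (SE, limma adjusted p = 0.00448) rested in part on the listed 0 in heart 2. Without heart 2 it was −5.93 ± 0.75 (SE, limma adjusted p = 0.000879). Liver was listed at 0 in 2 libraries and had 4034 FPKM in the other. ENSOARG00000000016 and ENSOARG00000021738 were also chosen by the values tested, and the former passed the filter through kidney alone. Their p are therefore no independent support.

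**Figure D5:**
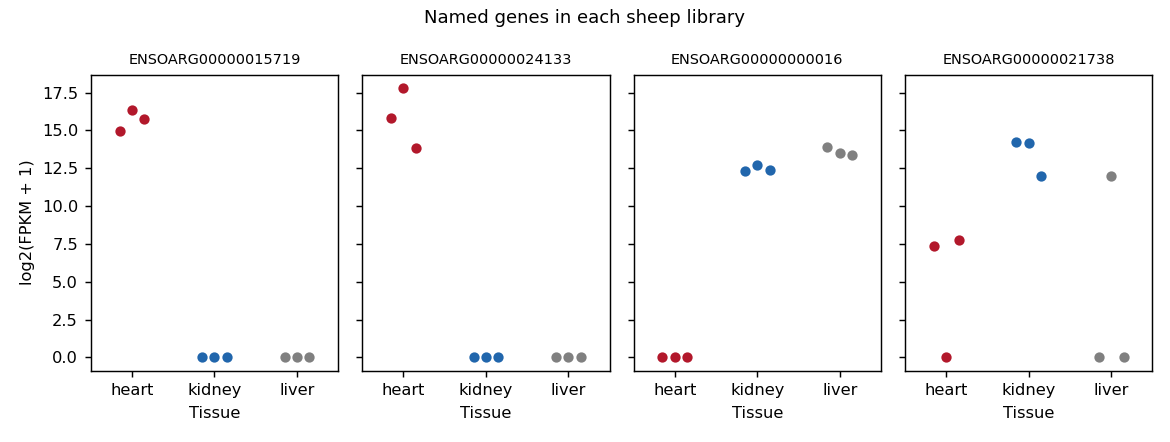
Level of the 4 named genes (y axis, log2(FPKM + 1)) in each library of heart (red), kidney (blue) and liver (gray), with replicates 1 to 3 from left to right. Heart and kidney do not overlap for any of the 4 genes, and ENSOARG00000021738 is listed at 0 in heart 2.

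The 10 genes with the widest gaps in favor of heart had gaps of 11.97 to 14.95 on the log2 scale and heart means of 6554 to 100472 FPKM, and no kidney library exceeded 0.237 FPKM for any of them. For 8 of these 10, all liver libraries were below 0.1 FPKM. The 10 widest gaps in favor of kidney were smaller, from 6.76 to 12.31, with kidney means of 199 to 8587 FPKM and heart values up to 14.6 FPKM. For none of these 10 was liver below 0.1 FPKM in all libraries, and for 6 it was above 1 FPKM in all of them. Among the 100 widest gaps, liver was below 0.1 FPKM in all libraries for 49 genes of heart and 5 of kidney. The 2 lists also differed otherwise. The other tissue was listed at 0 in all libraries for 24 genes of heart and 7 of kidney, and the median levels were 156 and 75.0 FPKM. The share of all genes tested with liver below 0.1 FPKM was not determined. These groups were chosen by the values shown and were not tested.

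For most of the called genes, liver lay nearer to the lower of the 2 tissues. For the 1099 genes called higher in heart under all 4 scalings, the mean log2(FPKM + 1) of liver was nearer to kidney for 895 (81.4%) and nearer to heart for 204. It was below both tissues for 500 of them (45.5%). For the 3929 genes called higher in kidney under all 4 scalings, liver was nearer to heart for 3336 (84.9%) and below both for 1794 (45.7%). With median ratio scaling over the 9 sheep libraries, liver remained nearer to the lower tissue, for 70.2% of the heart genes and 64.2% of the kidney genes, and was below both for 29.4% and 30.8%. Among all genes called with deposited FPKM, that scaling placed liver nearer to the lower tissue for 62.2% of the 2247 heart genes and 58.7% of the 7566 kidney genes. Liver was above both tissues for 16.6% and 31.6% of these. The genes were chosen for a difference between heart and kidney, and the same shares over all genes tested were not determined. Genes are not independent of each other, and no test was made on these shares.

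The same measures were set beside cattle and goat, each with 3 heart and 3 kidney libraries. By the labels, the cattle were older than the sheep, and the goats had the age of the sheep. Sheep heart reached 50 percent of the summed FPKM with 13.7 genes on average, cattle heart with 30.3 and goat heart with 74.7, and the kidneys with 157, 141 and 239. The share of the 10 highest genes was 28.0 percentage points higher in heart than in kidney in sheep, 18.6 in cattle and 12.1 in goat. Sheep was tested against goat, where same-numbered heart and kidney libraries deviated together as in sheep, on the heart minus kidney difference within each number. Cattle was not tested, because its same-numbered libraries did not all deviate together (r of 0.17, −0.12 and 0.12). These values do not show that the cattle libraries were unpaired. For the 10 highest genes this difference was 25.8, 31.5 and 26.8 percentage points in sheep and 8.73, 10.99 and 16.5 in goat, without overlap (exact permutation p = 0.1, n = 3, the smallest possible). For the number of genes that hold 50 percent it was −115, −121 and −193 in sheep and −41, −173 and −278 in goat, and the values overlapped (exact permutation p = 0.8, n = 3). Adjusted over 3 measures, the third being the share of genes above 0.5 FPKM, no p was below 0.3, so no difference between these species was shown. Each species was quantified against its own gene models, and these and the species cannot be told apart. The same holds for the age of the cattle.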

How the data were processed

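Per the labels, strand-specific libraries (dUTP) were made from total RNA. According to the study's methods, filtered reads were mapped with TopHat to the sheep genome Oar_v3.1 and quantified with Cufflinks 2.2.1. The labels' processing notes list the cattle build UMD3.1 for all samples. The authors deposited values on the log2 scale, log2(FPKM + 1), per gene and library, and FPKM was recovered from them. The values hold no counts and do not give the depth of each library, so no counting intervals are given. The study reports the average amount of sequence per sample. FPKM is relative: where a few transcripts are very abundant, others are lowered.

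Sheep columns were matched to samples by the names in the sample descriptions. The 13549 genes that passed the filter (3 of 6 libraries over 0.5 FPKM) were tested with limma (version 3.58.1, R 4.3.3) on log2(FPKM + 1). The model had a coefficient for each tissue and no term for the replicate number. In it, eBayes used the trend of variance with level. The p was adjusted after Benjamini and Hochberg over all these genes, with a threshold of 0.05. A fold change on this scale understates low genes. The fit was tested on simulated data. Values per library were compared with 2-sided exact permutation tests (scipy 1.17.1, Python 3.11.15), which within sheep treated heart and kidney libraries as unpaired.

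The deviations of same-numbered heart and kidney libraries from their group means correlated across genes (0.24, 0.18 and 0.22), and those with different numbers had r from −0.16 to −0.08, so the numbers were taken to pair the samples. In cattle these values were 0.17, −0.12 and 0.12, and in goat 0.48, 0.23 and 0.41. The genes named were, in each direction, the called gene with the largest gap between tissues and the called gene with the largest difference of mean FPKM. The libraries, lists and tests were chosen with earlier results of these data known. Gene lists of tissue functions and cell types could not be applied without symbols. The tables of cattle and goat served the comparison of library measures, and goat protein sequences were not used. Alternatives were the pseudocount, the filter, 3 scalings, the replicate block, a fit with liver, the trend, a minimum change and leaving out each library.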

Additional observations from a re-analysis of the deposited data

How the results depend on the processing

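The number of genes called stayed within 1.5 times of 9813 under all alternatives, from 6719 with a minimum log2 fold change of 1 to 11701 with equal sums, and from 8797 to 10136 when a library was left out. With the replicate block, the paired fit called 10043 genes and changed no call of the 4 named genes. The share of calls higher in heart (22.9%) was 21.9% with the study's filter (over 80% of libraries), 49.9% with median ratio scaling, 49.97% with that scaling and the replicate block, 46.5% with quantile normalization, 9.43% with equal sums, and from 21.6% to 24.3% without a library. The median difference was −0.89 with a pseudocount of 0.1, −0.37 without a filter, −0.024 with median ratio scaling (with and without the block), −1.62 with equal sums, −0.10 after quantile normalization, and from −0.75 to −0.67 without a library.

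The share of listed genes above 0.5 FPKM differed by −4.02 percentage points (heart minus kidney), by −3.37 at 0.1 FPKM, −4.67 at 1 FPKM, −0.785 with median ratio scaling, and from −4.19 to −3.80 without a library. The share of the 10 highest genes was 28.0 percentage points larger in heart, 31.0 for 100 genes, 7.27 for the highest gene, and from 26.6 to 29.4 without a library. The number of genes holding 50 percent of the sum differed by −143, by −2091 for 80 percent, and from −157 to −117 without a library. Genes above 0.5 FPKM in a single tissue and listed at 0 in the other were 71 (heart) and 79 (kidney). The other definition, above 1 FPKM in a tissue and below 0.1 FPKM in the other, gave 112 and 128. Under that definition the counts were 139 and 78 with median ratio scaling. They were 121 to 136 and 148 to 172 without a library, as fewer conditions must raise a count. Classes by liver level turned the majority above 1000 FPKM to kidney (37.0% higher in heart). The cause was not tested other than where the construction shows it. Alternatives for the abundance classes, the block combined with scaling and the pairs within library measures were chosen after the data were examined.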

Other observations

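Some abundant genes were listed at 0 in part of a group. In heart, 12 genes were listed at 0 in 1 or 2 libraries and exceeded 1000 FPKM in another, and in kidney 4 genes did so. Without these genes, the share of the 10 highest genes was 28.9 percentage points larger in heart than in kidney, against 28.0 with them, a change below the spread between replicates.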
